A study of Mus musculus with 24 samples.

Results

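The livers of mice that make only the P2 form of HNF4α were compared between midday and morning. The 6 libraries came from fed α7HMZ males, 3 mice killed at 13:30 (ZT 6.5) and 3 killed at 10:30 (ZT 3.5), and they are 6 of the 24 liver libraries of the series. They were defined by their genotype, feeding and clock time rather than by a measured value, but the choice was made with earlier results of these data known. Set beside them were 3 fed WT males at 13:30 and 3 at 10:30. All mice were of a mixed 129/Sv plus C57BL/6 background, 16 to 20 weeks old, with chow at will. In α7HMZ mice an exon swap leaves P2-HNF4α as the only form made wherever the gene is active, so the allele is not limited to hepatocytes, while adult WT livers make P1-HNF4α. The study asked whether the tumour-associated form of HNF4α, on its own, changes which genes a liver expresses.

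HNF4α is a nuclear receptor that holds hepatocytes in their adult state, and its gene has a pair of promoters. P1 drives the form of the adult liver, whereas P2 drives the form of the fetal liver and of some liver tumours. The circadian clock of the liver is a feedback loop in which BMAL1 (encoded by Arntl) with CLOCK or NPAS2 switches on genes through E-boxes, among them the repressors PER and CRY that later shut the pair off. Its outputs include the D-box factors DBP, TEF and HLF and many genes of sugar, fat, bile acid and drug handling. In mice, active at night, the hours compared here fall within the daytime rest.

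The flow cell limits every value of the change over time. Within each genotype, the 13:30 libraries were run on flow cell 377 and the fed 10:30 libraries on flow cell 375, so time and flow cell cannot be told apart. A shift that the flow cells gave both genotypes alike drops out of the difference between the genotypes. The α7HMZ libraries held 14699690 to 22557384 counts at 13:30, against 10655650 to 24602090 counts at 10:30. In replicate 1 of the α7HMZ 10:30 group, 50.8% of the counts fell on Rn45s, the ribosomal RNA precursor, against at most 0.405% in the other 11 libraries compared. Rn45s was therefore left out, which left that library 12097137 counts, and several results are given with and without that library. The median SD of log2 CPM, the counts per 1000000 counts of a library, over 13240 tested genes was 0.133 in α7HMZ livers at 13:30 and 0.237 at 10:30, against 0.151 in WT livers at 13:30 and 0.131 at 10:30. Hepatocyte markers summed to 97490 to 109900 CPM in α7HMZ livers at 13:30, against 112500 to 135200 CPM at 10:30, so the ranges did not overlap. In WT livers they summed to 108300 to 124800 CPM at 13:30, against 140000 to 172200 CPM at 10:30. None of the 12 was called in α7HMZ livers by edgeR (4 lower at an unadjusted p under 0.05, 1 called lower by DESeq2), whereas 3 were called lower without α7HMZ 10:30 replicate 1. Kupffer cell markers summed to 338.3 to 403.2 CPM at 13:30 against 292.3 to 406.4 CPM at 10:30, and stellate cell markers to 300.4 to 399.3 CPM against 283 to 384.2 CPM, so both sets of ranges overlapped. Sinusoidal endothelial markers summed to 575.9 to 588.2 CPM at 13:30 against 448.4 to 585.8 CPM at 10:30, and 10 of 13 pancreatic acinar markers were at 0 in all 6 libraries. The part of cell makeup in the results was not tested, and in bulk liver fewer cells of a type and less RNA per cell cannot be told apart. Counts of Hnf4a cover the whole gene and cannot separate P1 from P2. Hnf4a had 937, 832 and 1062 CPM in α7HMZ livers at 13:30 against 847, 1193 and 1041 CPM at 10:30, ranges that overlap (log2 fold change -0.12 ± 0.17, adjusted p = 0.74, edgeR).

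Clock genes were among the largest called changes between morning and midday in both genotypes, and fewer genes passed the test in α7HMZ than in WT livers. By edgeR's quasi-likelihood test with a Benjamini-Hochberg adjusted p under 0.05, 305 genes were higher (2.3% of 13240) and 319 lower (2.41%) at 13:30 than at 10:30 in α7HMZ livers. In WT livers 1275 were higher (9.63%) and 1280 lower (9.67%). Of the α7HMZ calls, 137 were also higher and 160 also lower in WT livers, which is 44.9% and 50.2% of the α7HMZ lists and 10.7% and 12.5% of the WT lists, while 12 went opposite ways. The change itself differed between the genotypes for 304 genes, more positive in α7HMZ livers for 154 (1.16%) and more negative for 150 (1.13%). Of these, 47 were called in α7HMZ livers alone, 222 in WT livers alone, 20 in both and 15 in neither. The median absolute log2 fold change was 0.713 among the α7HMZ calls and 0.621 among the WT calls. Of the 624 α7HMZ calls, 610 had no overlap between the livers of the 2 times. A lack of overlap in a called gene therefore adds little to its call. The 12 largest called changes each way were also named only where the α7HMZ groups did not overlap. Across the 13240 genes, which are not independent replicates and share their libraries, the changes in α7HMZ and WT livers had a Pearson correlation of 0.337 and a Spearman correlation of 0.286, or 0.219 and 0.168 without α7HMZ 10:30 replicate 1.

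Several libraries moved these counts. The α7HMZ calls came to 148 higher and 148 lower without α7HMZ 10:30 replicate 3, to 179 and 139 without 13:30 replicate 1, to 154 and 138 without 13:30 replicate 2, and to 150 and 122 without 13:30 replicate 3. Without α7HMZ 10:30 replicate 1 they came to 409 and 429, of which 244 and 263 were among the original calls. The WT higher calls came to 830, 718 and 832 without WT 10:30 replicates 1, 2 and 3 and to 834 without WT 13:30 replicate 3, which also left 799 lower. The 304 differences became 60 and 46 without WT 10:30 replicates 1 and 2 and 133 without replicate 3. They became 62 and 67 without WT 13:30 replicates 1 and 3, 60 without α7HMZ 10:30 replicate 2, and 108, 102 and 63 without α7HMZ 13:30 replicates 1, 2 and 3. They became 875 without α7HMZ 10:30 replicate 1, with 298 of the 304 among them.

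**Figure D1:**
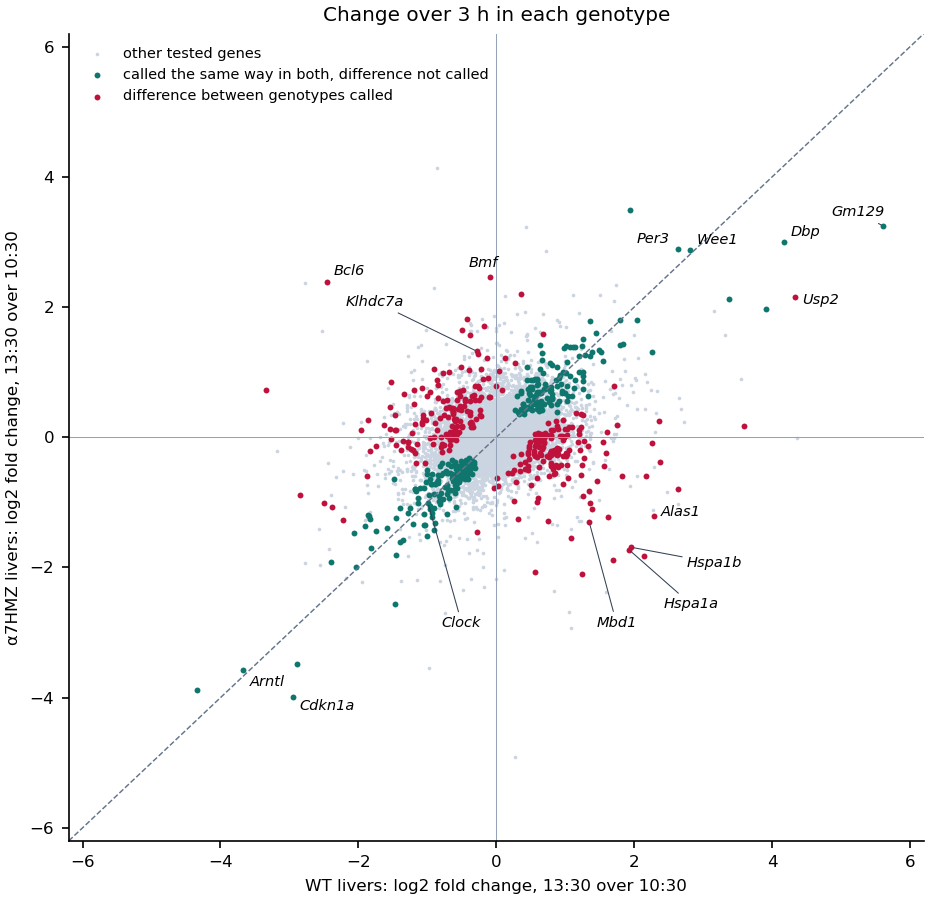
Log2 fold change of 13:30 over 10:30 in α7HMZ livers (vertical) against that in WT livers (horizontal), 1 point a tested gene; teal points were called the same way in both genotypes without a called difference, red points had a called difference, the dashed line marks equal change, and 6 genes fall outside the range of 6.2. The clock genes Per3, Wee1, Arntl and Clock lie near the dashed line, whereas Hspa1a, Hspa1b and Mbd1 lie below 0 for α7HMZ livers and above 0 for WT livers.

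Of the 20 core clock genes tested, 6 rose and 3 fell in α7HMZ livers, and in WT livers 10 rose and 5 fell. The called repressors rose, and the called partners of the BMAL1 activator pair fell. Per3, a period repressor, had 42.0, 40.1 and 44.7 CPM in α7HMZ livers at 13:30, against 3.94, 6.58 and 6.43 CPM at 10:30. In WT livers it had 19.2, 26.8 and 31.3 CPM at 13:30, against 3.77, 3.52 and 5.25 CPM at 10:30. All 13:30 livers stood above all 10:30 livers in both genotypes, and the log2 fold change was 2.89 ± 0.28, adjusted p = 9.49e-06 in α7HMZ livers and 2.64 ± 0.28, adjusted p = 1.26e-05 in WT livers (± SE, edgeR, 3 mice a group). Per2, its paralogue, had 39.9, 29.5 and 37.9 CPM at 13:30, against 5.13, 16.1 and 9.41 CPM at 10:30, in α7HMZ livers (1.80 ± 0.30, adjusted p = 0.00192, edgeR). Cry2, a cryptochrome repressor, had 47.6, 41.7 and 49.8 CPM at 13:30, against 16.6, 15.1 and 21.9 CPM at 10:30 (1.37 ± 0.15, adjusted p = 4.02e-05, edgeR). Neither set of 3 midday livers overlapped the morning ones. Ciart, a repressor of the CLOCK and BMAL1 pair listed under its older symbol Gm129, had 21.3, 12.3 and 19.2 CPM in α7HMZ livers at 13:30, against 0.458, 1.43 and 3.21 CPM at 10:30. Its log2 fold change was 3.25 ± 0.47, adjusted p = 0.000573 in α7HMZ livers and 5.61 ± 0.56, adjusted p = 6.94e-06 in WT livers, which had 25.5, 29.8 and 25.4 CPM at 13:30, against 0.279, 0.448 and 1.10 CPM at 10:30 (edgeR). That difference between the genotypes was not called (-2.37 ± 0.80, adjusted p = 0.116, edgeR), but it was without α7HMZ 10:30 replicate 1, the library rich in Rn45s (-2.74 ± 0.74, adjusted p = 0.0371, edgeR).

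The activators were low at midday in both genotypes. Arntl had 1.17, 1.04 and 0.893 CPM in α7HMZ livers at 13:30, against 9.90, 9.11 and 18.2 CPM at 10:30, and 1.97, 2.18 and 1.66 CPM in WT livers at 13:30, against 23.8, 25.6 and 26.2 CPM at 10:30. At each time all 3 α7HMZ livers lay below all 3 WT livers, and the log2 fold change over the 3 h was -3.58 ± 0.35, adjusted p = 1.04e-05 in α7HMZ and -3.68 ± 0.32, adjusted p = 1.98e-06 in WT livers (edgeR). The difference between them was 0.10 ± 0.50, with adjusted p = 0.948 (edgeR). Clock had 34.7, 36.9 and 33.8 CPM at 13:30, against 74.5, 78.3 and 60.4 CPM at 10:30, in α7HMZ livers (-1.01 ± 0.12, adjusted p = 0.00012, edgeR). Npas2, which can stand in for CLOCK, had 0.188, 0.0799 and 0.0595 CPM at 13:30, against 3.12, 0.675 and 1.72 CPM at 10:30, in α7HMZ livers. The midday values rest on a few reads a library, so the size of its fall is poorly known although the groups did not overlap (adjusted p = 0.000656, edgeR).

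Not every core clock gene moved. Nr1d1, which encodes the repressor REV-ERBα, had 83.0, 106 and 101 CPM in α7HMZ livers at 13:30, against overlapping values of 73.3, 103 and 83.9 CPM at 10:30 (0.16 ± 0.23, adjusted p = 0.755, edgeR). Cry1 was at 10.7, 10.6 and 10.7 CPM at 13:30, against 9.71, 5.99 and 10.97 CPM at 10:30 (0.25 ± 0.18, adjusted p = 0.465, edgeR). Per1 was at 52.4, 15.2 and 36.8 CPM in α7HMZ livers at 13:30, against 34.0, 36.3 and 28.9 CPM at 10:30, with one midday liver below all morning livers. In WT livers Per1 rose (1.53 ± 0.37, adjusted p = 0.0073, edgeR), but the difference between the genotypes was not called (-1.45 ± 0.51, adjusted p = 0.134, edgeR). Bhlhe41, an E-box repressor, had 6.43, 8.55 and 10.2 CPM in α7HMZ livers at 13:30, against 0.367, 4.05 and 1.95 CPM at 10:30 (1.97 ± 0.45, adjusted p = 0.0175, edgeR). This call was lost without α7HMZ 10:30 replicate 3, 13:30 replicate 2 or 13:30 replicate 3 (adjusted p = 0.0774, 0.0525 and 0.0667, edgeR). Its difference between the genotypes was not called (-1.95 ± 0.69, adjusted p = 0.135, edgeR), but it was without α7HMZ 10:30 replicate 1 (-2.37 ± 0.56, adjusted p = 0.0211, edgeR).

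**Figure D2:**
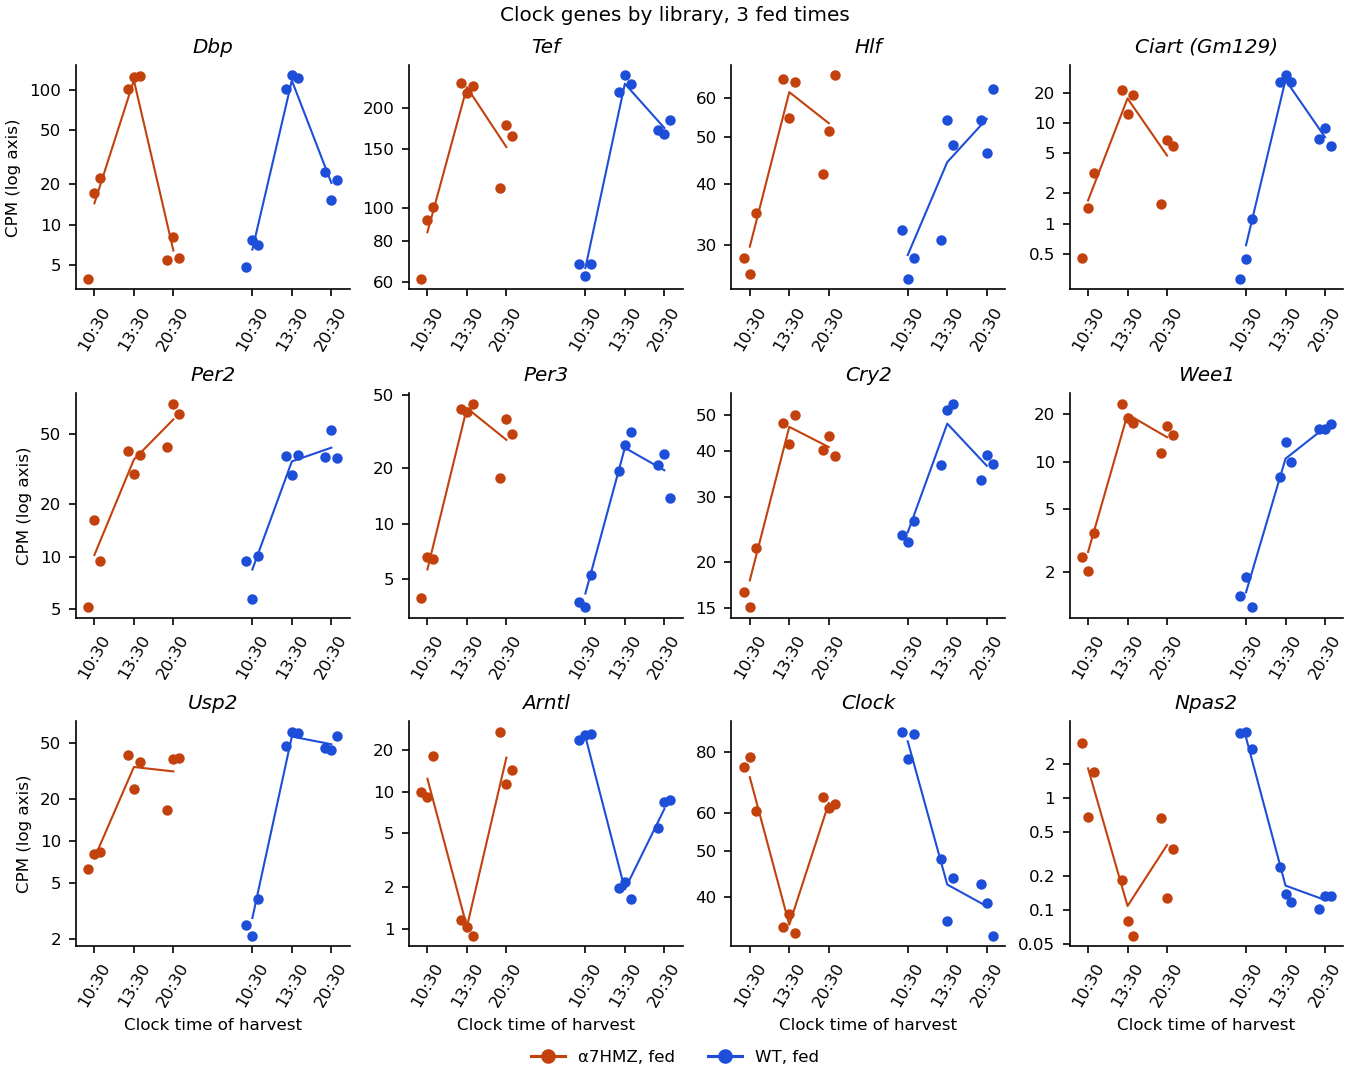
CPM (log axis) of 12 clock and clock output genes in each library at 10:30, 13:30 and 20:30, α7HMZ livers in orange and WT livers in blue, with lines through the group means of 3 mice. In both genotypes Dbp, Per3, Wee1 and Usp2 are higher and Arntl, Clock and Npas2 lower at 13:30 than at 10:30, with no overlap between the livers of the 2 times.

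The promoters of the called clock genes are shown because the loop described above acts through short motifs. Of 12 called core clock and output genes with a RefSeq promoter (250 bases upstream of the start, GRCm38.p6), 4 held an E-box (CACGTG), a D-box (TTANGTAA) or a ROR element (TAGGTCA) on either strand. The stretches around the matches are given 5′ to 3′ on the strand of the gene, with the matches in capitals. Per3 (chr4:151044786-151044900, minus strand) holds 2 D-boxes that begin 205 and 158 bases upstream, Tef (chr15:81802516-81802581, plus strand) an E-box 127 bases upstream, Ciart (chr3:95882237-95882374, minus strand) 3 E-boxes 116, 58 and 44 bases upstream, and Bhlhe41 (chr6:145865538-145865603, minus strand) an E-box 153 bases upstream.
Per3: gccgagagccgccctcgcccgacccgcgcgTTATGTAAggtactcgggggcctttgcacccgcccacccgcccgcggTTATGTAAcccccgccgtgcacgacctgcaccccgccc
Tef: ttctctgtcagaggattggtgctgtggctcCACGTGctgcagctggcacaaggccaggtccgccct
Ciart: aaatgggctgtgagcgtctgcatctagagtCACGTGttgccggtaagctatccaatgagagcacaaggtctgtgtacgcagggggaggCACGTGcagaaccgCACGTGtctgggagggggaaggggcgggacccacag
Bhlhe41: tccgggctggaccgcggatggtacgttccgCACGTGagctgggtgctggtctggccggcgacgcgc
An E-box stood in a promoter of 17.4% of 236 genes higher at 13:30 in α7HMZ livers and of 9.27% of 248 genes lower at 13:30. It stood in a promoter of 9.78% of 10489 tested genes and in 6.02% of all 32851 promoter entries. A gene was counted if any of its entries held the motif, whereas the 32851 entries were scored singly, so those shares are not like for like. A D-box stood in 3.81% and 3.23% of the higher and lower sets, against 1.7% of tested genes and 2.06% of all promoters. The ROR element stood in 1.69% and 5.65%, against 2.23% of tested genes and 2.23% of all promoters. These shares are descriptions, and a match is not a site in use.

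Of 14 clock output genes tested, 7 rose and 1 fell in α7HMZ livers, the same counts whichever of the 6 libraries was left out, and in WT livers 10 rose and 2 fell. The median log2 fold change of the list was 0.726 in α7HMZ and 1.701 in WT livers, against −0.014 and −0.008 over all tested genes. Dbp, the D-box activator, had 100.4, 124 and 127 CPM in α7HMZ livers at 13:30, against 3.94, 17.1 and 22.1 CPM at 10:30, and 100.5, 127 and 123 CPM in WT livers at 13:30, against 4.84, 7.74 and 7.03 CPM at 10:30. The midday levels of the genotypes overlapped, and 2 of the 3 α7HMZ morning livers lay above all WT morning livers. The log2 fold change of Dbp was 3.00 ± 0.36, adjusted p = 9.69e-05 in α7HMZ and 4.17 ± 0.38, adjusted p = 2.78e-06 in WT livers, a difference that was not called (-1.17 ± 0.49, adjusted p = 0.202, edgeR). Without α7HMZ 10:30 replicate 1, in which Dbp was the lowest of the α7HMZ morning livers, the difference was called (-1.58 ± 0.29, adjusted p = 0.00557, edgeR). Tef had 238, 221 and 232 CPM at 13:30, against 61.3, 91.9 and 101 CPM at 10:30, in α7HMZ livers (1.44 ± 0.16, adjusted p = 4.28e-05, edgeR). Hlf had 65.7, 54.6 and 64.8 CPM at 13:30, against 28.2, 26.2 and 35.0 CPM at 10:30 (1.04 ± 0.20, adjusted p = 0.00525, edgeR). All 3 D-box factors were thus higher in every midday α7HMZ liver than in any morning one. Wee1, a kinase that holds back entry into mitosis, had 23.4, 18.9 and 17.6 CPM in α7HMZ livers at 13:30, against 2.47, 2.02 and 3.50 CPM at 10:30 (2.87 ± 0.23, adjusted p = 1.42e-06, edgeR). The change in WT livers was 2.81 ± 0.24, adjusted p = 1.98e-06 (edgeR), and every midday liver lay above every morning liver in both genotypes. Elovl3, a fatty acid elongase, fell, with 37.4, 38.1 and 43.8 CPM at 13:30, against 179.9, 68.3 and 227 CPM at 10:30, in α7HMZ livers (-2.00 ± 0.31, adjusted p = 0.000888, edgeR).

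Some clock output genes changed by different amounts in the genotypes. Usp2, a deubiquitinase under clock control, had 40.9, 23.3 and 36.6 CPM in α7HMZ livers at 13:30, against 6.32, 8.01 and 8.27 CPM at 10:30, and 47.5, 60.1 and 58.9 CPM in WT livers at 13:30, against 2.51, 2.11 and 3.81 CPM at 10:30. It rose in both, by 2.15 ± 0.28 in α7HMZ and 4.33 ± 0.32 in WT livers on the log2 scale (adjusted p = 0.000264 and 3.82e-07, edgeR). The difference of -2.19 ± 0.42 was called (adjusted p = 0.0158, edgeR), but not without WT 10:30 replicate 1 or 2 (adjusted p = 0.0578 and 0.0666, edgeR). Among the clock outputs 3 differences were called negative and 1 positive. That count fell to 0 negative without WT 10:30 replicate 2, to 1 without WT 10:30 replicate 1, WT 13:30 replicate 3, α7HMZ 10:30 replicate 2 or α7HMZ 13:30 replicate 3, and to 2 without WT 10:30 replicate 3 or α7HMZ 13:30 replicate 2, whereas it was 5 without α7HMZ 10:30 replicate 1. The positive one, Avpr1a, was kept only without WT 13:30 replicate 2 or α7HMZ 10:30 replicate 1.

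Most heat shock genes rose in WT livers, and a few fell in α7HMZ livers. Their list, like the other lists, was chosen with earlier results of these data known. Of 17 tested, 3 fell in α7HMZ livers by edgeR (6 at an unadjusted p under 0.05, 3 by DESeq2) and 0 rose (0 at an unadjusted p under 0.05, 0 by DESeq2). In WT livers 15 rose, and the difference of the change was negative for 10. The median log2 fold change of the list was −0.342 in α7HMZ and 0.862 in WT livers, against −0.014 and −0.008 over all tested genes. Hspa1a, an inducible HSP70 chaperone, had 4.92, 6.51 and 4.29 CPM in α7HMZ livers at 13:30, against 9.71, 27.5 and 15.3 CPM at 10:30, and 15.9, 7.57 and 14.7 CPM in WT livers at 13:30, against 3.26, 3.33 and 3.39 CPM at 10:30. In α7HMZ livers every morning value stood above every midday value, and in WT livers every midday value stood above every morning value. The log2 fold change was -1.73 ± 0.33, adjusted p = 0.00526 in α7HMZ and 1.93 ± 0.35, adjusted p = 0.00109 in WT livers, with a difference of -3.65 ± 0.48, adjusted p = 0.002 (edgeR). Hspa1b, its near-identical neighbour, had 12.0, 14.1 and 9.70 CPM at 13:30, against 19.3, 58.9 and 37.7 CPM at 10:30, in α7HMZ livers (-1.69 ± 0.35, adjusted p = 0.00938, edgeR), and the difference from WT was -3.65 ± 0.51, adjusted p = 0.00278 (edgeR). Reads of this pair may be split between them or lost, so their single values are uncertain. The Hspa1b call in α7HMZ livers was lost without 13:30 replicate 3 (adjusted p = 0.0537, edgeR). Dnajb1, an HSP40 partner of HSP70, had 23.0, 26.3 and 21.3 CPM in α7HMZ livers at 13:30, against 27.7, 40.9 and 39.8 CPM at 10:30, and 55.1, 32.8 and 46.2 CPM in WT livers at 13:30, against 22.4, 21.0 and 21.8 CPM at 10:30. Both pairs of groups stood apart, in opposite directions, and the difference of the change was -1.66 ± 0.25, adjusted p = 0.00392 (edgeR). Its fall within α7HMZ livers was weak (-0.62 ± 0.17, adjusted p = 0.0485, edgeR) and was lost without any of the 5 libraries other than 10:30 replicate 1 (adjusted p = 0.0772 to 0.17, edgeR).

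The chaperone genes Hsp90aa1, Hspa8 and Hsph1 did not pass in α7HMZ livers. Hsp90aa1, the inducible HSP90, had 206, 183 and 209 CPM at 13:30, against 183, 418 and 382 CPM at 10:30 (-0.72 ± 0.30, adjusted p = 0.183, edgeR). Hspa8, the constitutive HSP70, had 1687, 1717 and 1623 CPM at 13:30, against 1315, 2396 and 2374 CPM at 10:30 (-0.28 ± 0.20, adjusted p = 0.488, edgeR). Hsph1, an HSP110 exchange factor, had 71.1, 63.9 and 69.8 CPM at 13:30, against 46.8, 159 and 103 CPM at 10:30 (-0.59 ± 0.32, adjusted p = 0.322, edgeR). For all 3, replicate 1 of the 10:30 group, the library rich in Rn45s, was the lowest of its group and the 2 times overlapped. Hsph1 was among the 10 whose change differed between the genotypes (-2.42 ± 0.46, adjusted p = 0.0151, edgeR). Without that library, 7 heat shock genes fell in α7HMZ livers and 15 differences were negative. Without 13:30 replicate 3 only 1 fell, and without any of the other 4 α7HMZ libraries 2 fell. The negative differences numbered 3 without WT 10:30 replicate 2, 12 without WT 13:30 replicate 2 and 5 without any of the other 9 libraries, and the median difference of the list stayed between −1.381 and −0.995 in all 12. In WT livers 8 rose without 13:30 replicate 1 and 10 without 10:30 replicate 2. Leaving out libraries for list counts was chosen after seeing the data.

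**Figure D3:**
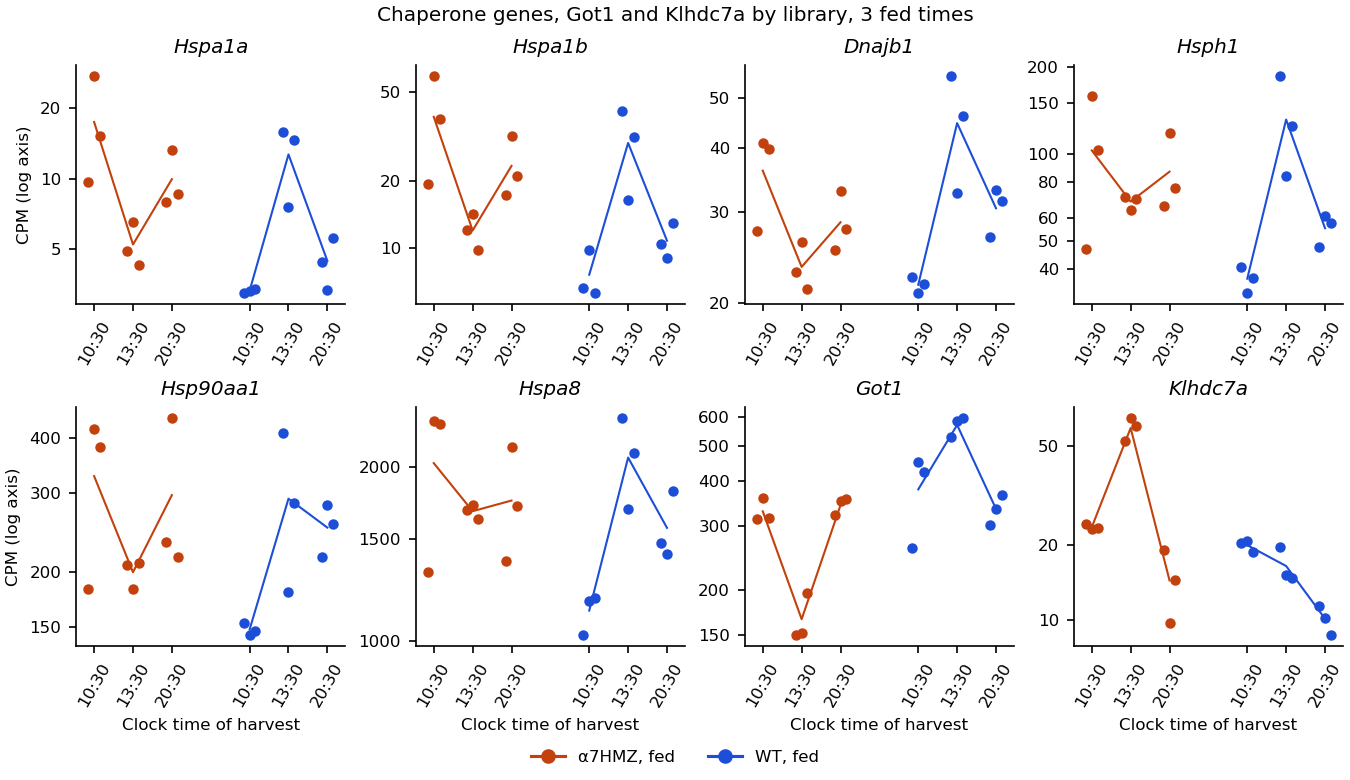
CPM (log axis) of 6 chaperone genes, Got1 and Klhdc7a in each library at 10:30, 13:30 and 20:30, α7HMZ livers in orange and WT livers in blue, with lines through the group means of 3 mice. Hspa1a, Hspa1b, Dnajb1 and Got1 are lower at 13:30 than at 10:30 in α7HMZ livers and higher in WT livers, while Klhdc7a is higher at 13:30 in α7HMZ livers.

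Of 7 heat shock genes with a RefSeq promoter and a called difference, 3 held a pair of inverted heat shock units (GAANNTTC, either strand) in the 250 upstream bases. They are shown, chosen after their values were seen, because heat shock factors bind such units. The match begins 104 bases upstream in Hspa1a (chr17:34972223-34972290, minus strand) and Hspa1b (chr17:34959305-34959372, minus strand) and 124 bases upstream in Dnaja1 (chr4:40722314-40722381, plus strand, GRCm38.p6).
Hspa1a: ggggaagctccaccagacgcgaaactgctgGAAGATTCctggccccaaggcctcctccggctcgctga
Hspa1b: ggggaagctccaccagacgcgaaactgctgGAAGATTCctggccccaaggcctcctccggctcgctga
Dnaja1: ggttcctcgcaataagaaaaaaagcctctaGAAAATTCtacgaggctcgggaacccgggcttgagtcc
The Hspa1a and Hspa1b stretches are identical, and 247 of their 250 upstream bases (98.8%) match. The motif stood in a promoter of 2.97% of genes higher at 13:30 in α7HMZ livers and of 8.47% of those lower, against 6.3% of tested genes. Of all promoter entries, scored singly, 6.69% held it.

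Outside the lists of clock and chaperone genes, the smallest p-values of the difference between genotypes went to genes of varied function. Mbd1, a methyl-CpG binding repressor, had 43.0, 39.1 and 43.5 CPM in α7HMZ livers at 13:30, against 88.9, 119 and 103 CPM at 10:30, and 219, 143 and 112 CPM in WT livers at 13:30, against 52.1, 55.2 and 79.5 CPM at 10:30. The midday livers were the low ones in α7HMZ mice and the high ones in WT mice, with no overlap in either. Its change was -1.31 ± 0.22, adjusted p = 0.00163 in α7HMZ and 1.35 ± 0.21, adjusted p = 0.00041 in WT livers, and the difference was -2.66 ± 0.30, adjusted p = 0.000445 (edgeR). Got1, the cytosolic aspartate aminotransferase, had 150.4, 152 and 196 CPM in α7HMZ livers at 13:30, against 314, 359 and 315 CPM at 10:30, and 529, 586 and 595 CPM in WT livers at 13:30, against 261, 452 and 424 CPM at 10:30. The 2 times did not overlap in either genotype, and the change was -0.99 ± 0.16, adjusted p = 0.00142 in α7HMZ and 0.59 ± 0.16, adjusted p = 0.0142 in WT livers (difference -1.58 ± 0.23, adjusted p = 0.00345, edgeR). Klhdc7a, a kelch domain gene, had 52.0, 64.4 and 60.2 CPM in α7HMZ livers at 13:30, against 24.2, 23.1 and 23.4 CPM at 10:30, and 19.5, 15.1 and 14.7 CPM in WT livers at 13:30, against 20.4, 20.7 and 18.8 CPM at 10:30. All α7HMZ midday livers stood above the other 9 livers, with a rise of 1.32 ± 0.18, adjusted p = 0.000265 and a difference from WT of 1.60 ± 0.25, adjusted p = 0.00639 (edgeR). Kalrn, a guanine nucleotide exchange factor, rose in α7HMZ livers, with 17.7, 19.1 and 18.1 CPM at 13:30 against 13.7, 11.8 and 11.5 CPM at 10:30 (0.57 ± 0.12, adjusted p = 0.0106, edgeR), and fell in WT livers (-0.58 ± 0.12, adjusted p = 0.00251, edgeR). The α7HMZ call was lost without 10:30 replicate 3 (adjusted p = 0.0549, edgeR), while the difference was 1.15 ± 0.17, adjusted p = 0.00392 (edgeR). Fermt2, the integrin activator kindlin 2, moved in WT rather than α7HMZ livers. It had 70.1, 77.3 and 72.4 CPM in α7HMZ livers at 13:30, against overlapping values of 85.2, 71.1 and 91.9 CPM at 10:30, and 80.2, 93.1 and 86.3 CPM in WT livers at 13:30, against 208, 216 and 187 CPM at 10:30. Its difference was 1.06 ± 0.15, adjusted p = 0.00278 (edgeR). Gm826, a transcript of no known role, was not called in α7HMZ livers (-0.60 ± 0.21, adjusted p = 0.109, edgeR) and rose in WT livers (2.18 ± 0.23, adjusted p = 1.23e-05, edgeR), with a difference of -2.78 ± 0.31, adjusted p = 0.000445 (edgeR).

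In glucose handling, 3 of 16 tested genes rose in α7HMZ livers, and 2 rose and 3 fell in WT livers. Over all tested genes 2.3% were called higher and 2.41% lower in α7HMZ livers, against 9.63% and 9.67% in WT livers. The WT count that fell was 1 or 2 without any 1 WT library other than 13:30 replicate 2. Gys2, liver glycogen synthase and also a clock output, had 161, 185 and 158 CPM in α7HMZ livers at 13:30, against 72.6, 61.1 and 56.8 CPM at 10:30 (1.40 ± 0.14, adjusted p = 9.49e-06, edgeR). In WT livers, which held more at both times, it had 269.6, 265 and 242 CPM at 13:30, against 134, 128 and 125 CPM at 10:30 (1.00 ± 0.13, adjusted p = 9.41e-05, edgeR). The difference of the change was not called (0.40 ± 0.19, adjusted p = 0.252, edgeR). Slc2a2, the liver glucose transporter GLUT2, had 308, 259 and 244 CPM in α7HMZ livers at 13:30, against 172, 166 and 189.7 CPM at 10:30, and 274, 267 and 235 CPM in WT livers at 13:30, against 297, 304 and 306 CPM at 10:30. The α7HMZ morning livers were the low group. Its rise of 0.62 ± 0.13 (adjusted p = 0.0115, edgeR) was lost without α7HMZ 13:30 replicate 1 (adjusted p = 0.0634, edgeR). The list count became 2 without α7HMZ 10:30 replicate 1, 10:30 replicate 3 or 13:30 replicate 2, and 1 higher and 1 lower without 13:30 replicate 1. The third gene, Pklr, the liver pyruvate kinase (0.87 ± 0.24, adjusted p = 0.0414, edgeR), lost its call without any of 4 libraries (adjusted p = 0.0936 to 0.179, edgeR). None of 13 gluconeogenesis genes was called in α7HMZ livers by edgeR (3 higher and 1 lower at an unadjusted p under 0.05, 0 by DESeq2), and 1 rose without α7HMZ 10:30 replicate 1. In WT livers 4 rose, but 2 did without 10:30 replicate 3 or 13:30 replicate 1 and 0 without any 1 of the other 4 WT libraries.

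Fat, sterol and bile acid genes had more lower than higher calls in α7HMZ livers, where 2.3% of all tested genes were called higher and 2.41% lower. Of 23 fatty acid synthesis genes 1 rose and 3 fell in α7HMZ livers, and 7 rose and 6 fell in WT livers. Dgat2, which makes triglyceride, rose, with 517, 488 and 531 CPM at 13:30, against 293, 317 and 343 CPM at 10:30 (0.69 ± 0.11, adjusted p = 0.00158, edgeR). Elovl5, an elongase of polyunsaturated fatty acids, fell, with 97.1, 95.7 and 85.3 CPM at 13:30, against 259.8, 229 and 255 CPM at 10:30 (-1.42 ± 0.26, adjusted p = 0.004, edgeR). Insig2, which restrains SREBP processing, fell, with 58.1, 64.7 and 57.4 CPM at 13:30, against 130.0, 98.8 and 152 CPM at 10:30 (-1.08 ± 0.15, adjusted p = 0.000392, edgeR). No midday liver overlapped the morning livers for these 3 genes, and in WT livers all 3 changed the same way (0.36 ± 0.11, adjusted p = 0.0308 for Dgat2, -0.91 ± 0.25, adjusted p = 0.0166 for Elovl5 and -1.40 ± 0.15, adjusted p = 1.52e-05 for Insig2, edgeR). The higher count was 2 without α7HMZ 10:30 replicate 1, and the lower count was 2 without 10:30 replicate 3, 13:30 replicate 1 or 13:30 replicate 3.

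Of 25 cholesterol genes 1 rose and 3 fell in α7HMZ livers, with a median log2 fold change of −0.318, and 9 fell in WT livers, with a median of −0.461. The α7HMZ median was −0.086 without 10:30 replicate 1. Hmgcs1, the synthase ahead of HMG-CoA reductase, had 115, 91.3 and 88.7 CPM in α7HMZ livers at 13:30, against 525, 177 and 255 CPM at 10:30 (-1.70 ± 0.34, adjusted p = 0.00764, edgeR). The morning α7HMZ livers were widely spread, with replicate 1 the highest. The lower count was 5 without α7HMZ 10:30 replicate 2, 2 without 10:30 replicate 3 or 13:30 replicate 1, and 1 without 13:30 replicate 3. In WT livers it was 3 without 10:30 replicate 2, 5 without 13:30 replicate 1 and 6 without 13:30 replicate 3.

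Of 25 bile acid genes tested (27 listed), 5 fell in α7HMZ livers and 8 in WT livers. Hsd3b7, a steroid dehydrogenase early in bile acid synthesis, had 251, 229 and 277 CPM in α7HMZ livers at 13:30, against 468, 370.4 and 463 CPM at 10:30 (-0.78 ± 0.14, adjusted p = 0.00463, edgeR). The WT change was -1.11 ± 0.14, adjusted p = 8.13e-05 (edgeR), and no midday liver reached a morning liver of its own genotype. Cyp7a1, the rate-limiting enzyme of the pathway, was not called (0.09 ± 0.39, adjusted p = 0.931, edgeR), a gene named here after its value was seen. The count that fell was 3 without α7HMZ 10:30 replicate 3 and 2 without any one of the 13:30 replicates, and Hsd3b7 was called each time.

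**Figure D4:**
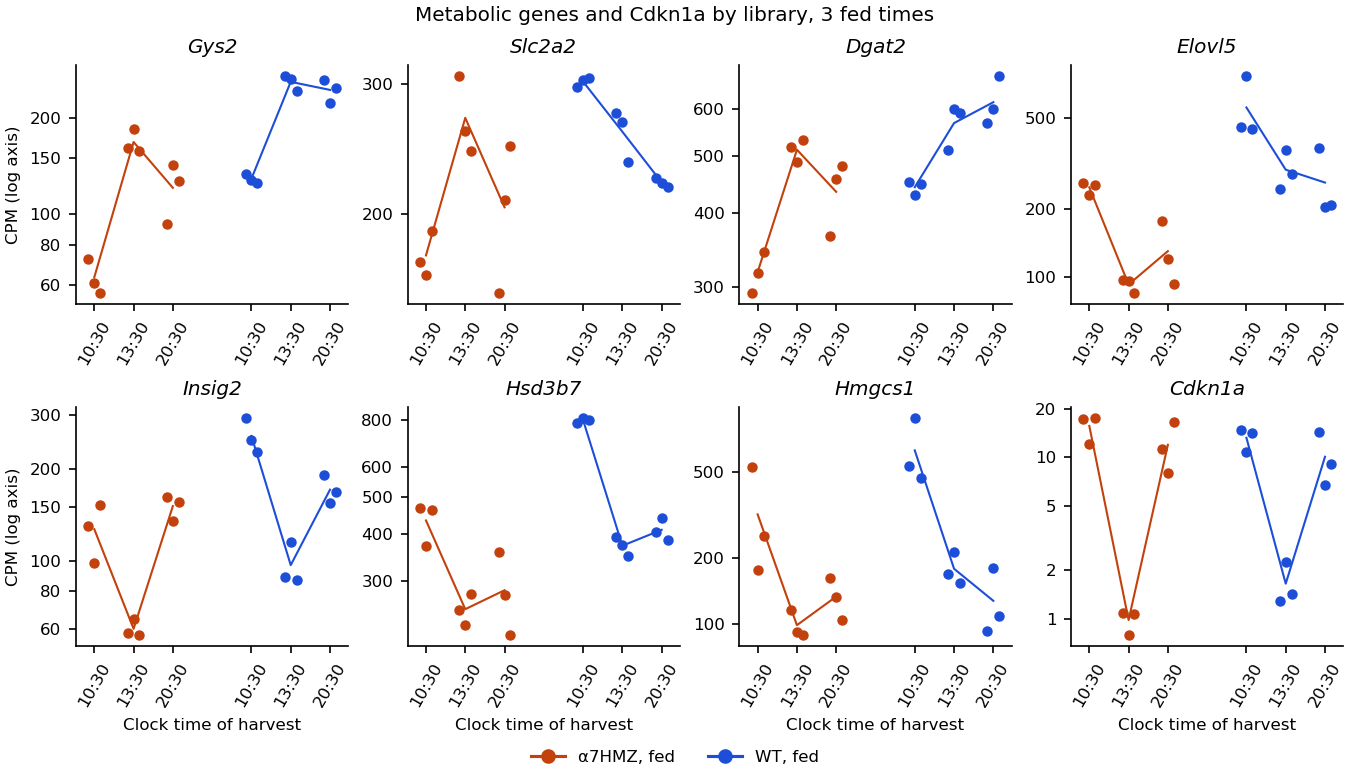
CPM (log axis) of Gys2, Slc2a2, Dgat2, Elovl5, Insig2, Hsd3b7, Hmgcs1 and Cdkn1a in each library at 10:30, 13:30 and 20:30, α7HMZ livers in orange and WT livers in blue, with lines through the group means of 3 mice. Gys2 and Dgat2 are higher and Elovl5, Insig2, Hsd3b7, Hmgcs1 and Cdkn1a lower at 13:30 than at 10:30 in both genotypes, whereas Slc2a2 is higher at 13:30 in α7HMZ livers and has a lower mean at 13:30 in WT livers.

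Cdkn1a, which encodes the cell cycle inhibitor p21, fell in both genotypes. It had 1.09, 0.799 and 1.07 CPM in α7HMZ livers at 13:30, against 17.3, 12.1 and 17.5 CPM at 10:30, and 1.30, 2.25 and 1.42 CPM in WT livers at 13:30, against 14.8, 10.8 and 14.1 CPM at 10:30. The times stood far apart in both genotypes, with a log2 fold change of -3.99 ± 0.33, adjusted p = 1.68e-06 in α7HMZ and -2.96 ± 0.31, adjusted p = 1.2e-05 in WT livers (edgeR). Ccne1, cyclin E1, rose at a low level, with 1.54, 2.36 and 1.73 CPM at 13:30, against 0.367, 0.506 and 0.402 CPM at 10:30, in α7HMZ livers (2.13 ± 0.34, adjusted p = 0.00127, edgeR). These were the 2 calls among 19 cell cycle genes, against 2.3% higher and 2.41% lower over all tested genes. So few calls describe these genes and not the list. In WT livers 4 of the list rose and 1 fell (3 and 1 without any 1 WT library), against 9.63% and 9.67% over all tested genes. Lrp4, a cell surface receptor, had 37.8, 33.6 and 33.0 CPM at 13:30, against 12.1, 9.61 and 8.84 CPM at 10:30 (1.78 ± 0.15, adjusted p = 1.68e-06, edgeR), and it also rose in WT livers (1.36 ± 0.14, adjusted p = 1.23e-05, edgeR). Sorl1, a sorting receptor, fell, with 0.676, 1.08 and 0.774 CPM at 13:30, against 4.77, 5.48 and 6.26 CPM at 10:30 (-2.70 ± 0.40, adjusted p = 0.000631, edgeR). Its difference between the genotypes was not called (-1.95 ± 0.52, adjusted p = 0.0531, edgeR), but it was without α7HMZ 10:30 replicate 1 (-2.01 ± 0.55, adjusted p = 0.0379, edgeR). Aqp8, a water channel, fell in α7HMZ livers, with 4.25, 2.76 and 2.38 CPM at 13:30, against 11.8, 7.08 and 14.3 CPM at 10:30 (-1.81 ± 0.29, adjusted p = 0.00125, edgeR). All WT livers held more Aqp8, at 55.0, 70.7 and 52.7 CPM at 13:30, against 132, 195 and 163 CPM at 10:30, and it fell there too (-1.46 ± 0.24, adjusted p = 0.00054, edgeR). Bmf, a BH3-only death protein, rose, with 16.3, 21.9 and 34.6 CPM in α7HMZ livers at 13:30, against 5.50, 2.70 and 4.82 CPM at 10:30 (2.47 ± 0.41, adjusted p = 0.00184, edgeR), and Gadd45a, a stress gene, had 3.87, 6.63 and 6.37 CPM against 0.916, 0.928 and 1.66 CPM (2.20 ± 0.35, adjusted p = 0.00114, edgeR). Neither passed the test in WT livers (-0.10 ± 0.38, adjusted p = 0.898, and 0.36 ± 0.31, adjusted p = 0.469, edgeR).

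A pair of very large falls rested on 1 library. Rmrp and Rpph1, the RNAs of RNase MRP and RNase P, which carry no poly(A) tail, had 229 and 312 CPM in α7HMZ 10:30 replicate 1, the library rich in Rn45s. The other 2 α7HMZ morning livers had 0.169 and 0.344 CPM of Rmrp and 0.169 and 1.15 CPM of Rpph1, and no midday α7HMZ liver exceeded 0.119 CPM of either. Both calls were lost without that library (adjusted p = 0.143 and 0.0724, edgeR), and that of Rmrp also without 13:30 replicate 1, 2 or 3 (adjusted p = 0.0547, 0.058 and 0.0528, edgeR).

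Of 13 glucocorticoid response genes, 5 fell in α7HMZ livers, with a median log2 fold change of −0.545, against −0.294 in WT livers. In WT livers 1 rose and 2 fell (1 to 3 without 1 WT library). The 5 that fell in α7HMZ livers were Cdkn1a, Errfi1, Mt2, Klf9 and Mt1, the last named after its value was seen. Klf9 lost its call without any 1 α7HMZ library other than 10:30 replicate 2 (adjusted p = 0.0611 to 0.117, edgeR), and Errfi1 without 10:30 replicate 3, 13:30 replicate 2 or 13:30 replicate 3 (adjusted p = 0.0653, 0.101 and 0.0667, edgeR). Mt2, a metallothionein, had 8.83, 4.23 and 15.1 CPM in α7HMZ livers at 13:30, against 38.7, 31.4 and 57.7 CPM at 10:30, without overlap (-2.22 ± 0.53, adjusted p = 0.0217, edgeR). Its call was lost without 10:30 replicate 3, 13:30 replicate 1 or 13:30 replicate 2 (adjusted p = 0.0974, 0.0805 and 0.107, edgeR). The list count was 2 without 10:30 replicate 3, 3 without 13:30 replicate 1 or 3, and 1, Cdkn1a, without 13:30 replicate 2. Fatty acid oxidation (26 tested), ribosome biogenesis (22), autophagy (12) and interferon response genes (14) had 0 calls in α7HMZ livers by edgeR, near the share over all tested genes (2.3% higher and 2.41% lower). At an unadjusted p under 0.05 they had 5, 0, 2 and 0, and by DESeq2 2, 0, 0 and 0. Of the fatty acid oxidation genes, 1 rose and 1 fell without α7HMZ 10:30 replicate 1, and 1 fell without replicate 2. In WT livers the same lists, in that order, had 2, 6, 4 and 1 higher and 2, 0, 2 and 2 lower calls, against 9.63% and 9.67% over all tested genes. The ribosome biogenesis count was 3 to 9 higher without 1 WT library. The difference of the change was negative for 2 ribosome biogenesis genes (0 to 6 without 1 library) and positive for 1 interferon response gene.

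**Figure D5:**
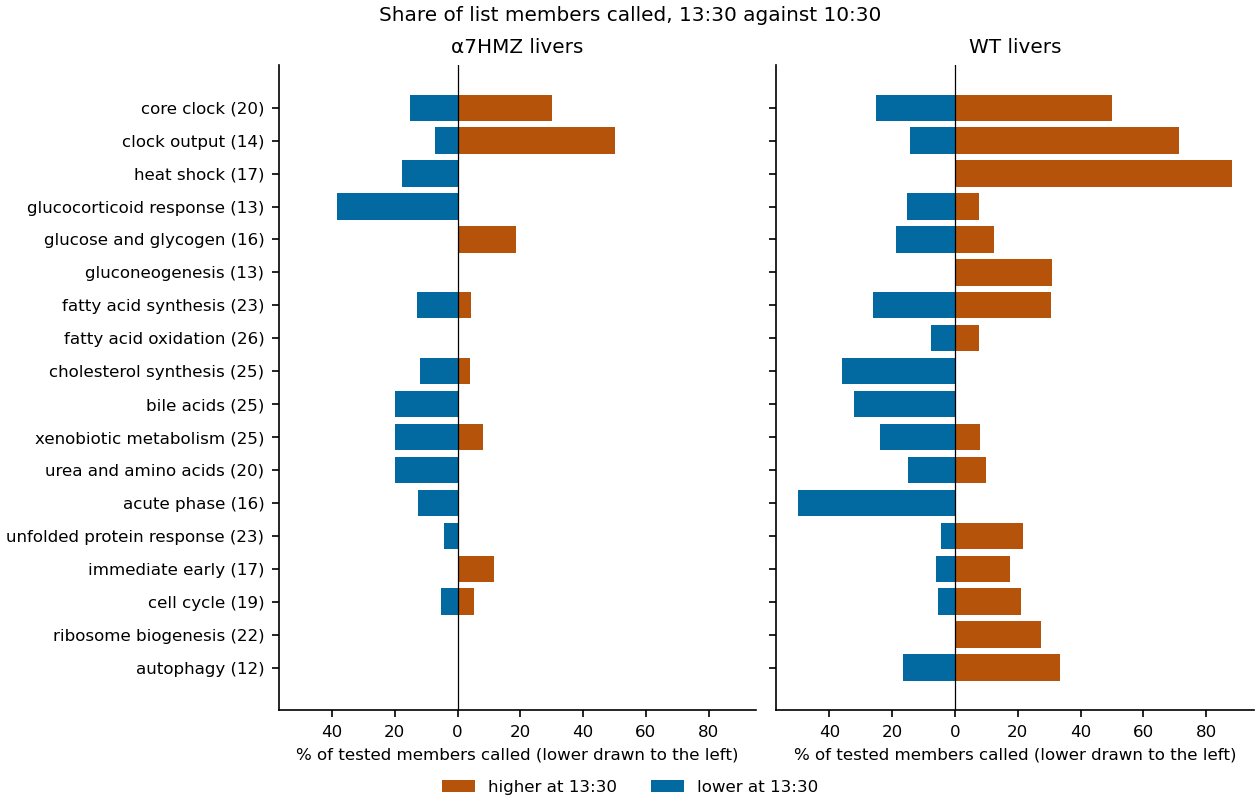
Share of the tested members of 18 gene lists called at 13:30 against 10:30 in α7HMZ livers (left) and WT livers (right), with higher calls to the right of 0 and lower calls to the left; the number tested is in brackets. Over all genes the shares were 2.3% higher and 2.41% lower in α7HMZ livers, against 9.63% and 9.67% in WT livers, and the clock output list has the longest bar to the right in α7HMZ livers, the heat shock list in WT livers.

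Across the 18 fed libraries of both genotypes and 3 times, Dbp had its most similar patterns in Slc5a6, a vitamin transporter (Pearson r = 0.916 of log2 CPM), and Sphk2, a sphingosine kinase (r = 0.899), and among its most opposite ones were Gldc, a glycine cleavage enzyme (r = -0.937), and Arntl (r = -0.923). These are descriptions over libraries that share group means. Sphk2 overlaps the Dbp locus on chromosome 7 (45709463 to 45718002, against 45705100 to 45710203 for Dbp, GRCm38.p6), and library preparation did not mark strand, so its level is uncertain. Ciart, Cry2, Elovl3, Gadd45a and Slc5a6 likewise overlap C920021L13Rik, D930015M05Rik, Pitx3, E230016M11Rik and Atraid. Gldc had 69.2, 83.1 and 91.8 CPM in α7HMZ livers at 13:30, against 155, 126 and 143 CPM at 10:30 (-0.80 ± 0.15, adjusted p = 0.00463, edgeR). It was lower in every midday α7HMZ liver than in any morning one.

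A second comparison kept the flow cell constant but not the feeding. The 13:30 fed α7HMZ livers were set against 10:30 α7HMZ livers that had been fasted for 12 h and were run on the same flow cell. It shares the 13:30 libraries with the comparison above, so the values are only given side by side. Log2 fold changes in this comparison were 5.72 ± 0.44, adjusted p = 9.7e-09 for Dbp, 5.56 ± 0.34, adjusted p = 3.01e-10 for Per3, -4.68 ± 0.34, adjusted p = 5.03e-09 for Arntl, 3.35 ± 0.22, adjusted p = 1.23e-09 for Wee1, -6.07 ± 0.42, adjusted p = 2.11e-09 for Cdkn1a and 1.53 ± 0.14, adjusted p = 8.7e-08 for Gys2 (edgeR). These 6 changes had the same sign as against fed morning livers. Klhdc7a (1.25 ± 0.25, adjusted p = 0.00138) and Kalrn (0.71 ± 0.15, adjusted p = 0.00143) kept their rise as well (edgeR). Got1 (0.03 ± 0.24, adjusted p = 0.961), Hspa1a (-0.46 ± 0.32, adjusted p = 0.398), Hspa1b (-0.45 ± 0.34, adjusted p = 0.44), Dnajb1 (0.23 ± 0.16, adjusted p = 0.419), Hmgcs1 (-0.30 ± 0.30, adjusted p = 0.598), Aqp8 (-0.18 ± 0.36, adjusted p = 0.817) and Sorl1 (-1.27 ± 0.58, adjusted p = 0.166) were not called, and Mbd1 went the other way (0.64 ± 0.20, adjusted p = 0.033, edgeR). Whether feeding or flow cell accounts for those cannot be told apart.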

How the data were processed

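Poly(A) RNA of single liver pieces was sequenced in 24 libraries. Per the labels and the methods of the study, the authors aligned reads to mm10 with TopHat2 2.1.1, kept reads with 1 alignment and counted them per gene symbol with HTSeq 0.6.1. The deposited values used here are those raw counts for 23411 symbols. The FPKM values that the authors also deposited were not used here. Library preparation did not mark strand, so reads of overlapping genes may be given to the wrong gene or lost.

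Groups came from the sample labels, with 3 mice each. Rn45s was left out before library sizes were taken, since it took 50.8% of 1 library. All 18 fed libraries were fitted together in 6 groups with edgeR 4.0.16 (filterByExpr, TMM factors, quasi-likelihood F test, R 4.3.3, limma 3.58.1), which left 13240 genes. Contrasts were 13:30 minus 10:30 in α7HMZ livers, the same in WT livers, and their difference, with Benjamini-Hochberg adjustment over all tested genes and a threshold of 0.05. CPM (counts per 1000000) use the TMM factors and no prior count, and fold changes are log2. Each SE was worked back from the test, as the size of the log2 fold change over the square root of its F statistic. It is thus no measure apart from the p-value. Total counts of the 12 libraries compared ran between 10655650 and 28445590. In counts simulated from these libraries for 13098 genes, the α7HMZ contrast recovered 34.3% of 1.5-fold, 74.6% of 2-fold and 97% of 4-fold changes, and the difference between genotypes 11.9%, 43.3% and 87.9%. The simulation gave each gene the same spread in all groups. It thus left out the wider spread of the α7HMZ 10:30 livers (median SD 0.237, against 0.133 at 13:30), and recovery in the data may differ.

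Alternatives were other normalization factors, DESeq2 1.42.0, other count filters, keeping Rn45s, other sets of libraries, a replicate block, GC content offsets, a fold threshold, the fasted 10:30 α7HMZ libraries and leaving out each library. Named genes were all members of the clock and clock output lists, the 12 largest called changes each way without overlap and with a log2 CPM averaging 1 or more, up to 4 genes with the smallest p in each other list, the 10 smallest p-values of the difference, Hnf4a, Rn45s, and the 4 genes most and least correlated with Dbp, of which some are not reported here. The members and the gene lists, 505 genes of which 503 are in the table, were chosen with earlier results of these data known. Positions and promoters came from RefSeq (GRCm38.p6, the assembly of mm10), matched by symbol. Figures were drawn with matplotlib 3.10.9 in Python 3.11.15.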

Additional observations from a re-analysis of the deposited data

Results flagged for a closer look

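For 24 named genes the change over time differed between the genotypes by the test of the difference itself (edgeR, adjusted p under 0.05). Each value is the log2 change from 10:30 to 13:30 in α7HMZ livers minus that in WT livers. Groups of 3 mice are too small for a check of single outlying samples. The difference was positive, a more positive change in α7HMZ livers, for Bcl6 (4.85), Bmf (2.56), Cd207 (2.37), Gadd45a (1.84), Cirbp (1.7), Klhdc7a (1.6), Avpr1a (1.29), Kalrn (1.15), Fermt2 (1.06) and Slc2a2 (0.84). It was negative for Hspa1a (−3.65), Hspa1b (−3.65), Alas1 (−3.5), Gm826 (−2.78), Mbd1 (−2.66), Cyp2b10 (−2.62), Usp2 (−2.19), Dnajb1 (−1.66), Got1 (−1.58), Jun (−1.45), Sds (−1.09), Por (−0.92), Klf9 (−0.77) and Slc25a15 (−0.63).

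The largest of these, that of Bcl6, a transcriptional repressor, rested on 1 WT liver. Bcl6 had 53.2, 20.2 and 60.3 CPM in α7HMZ livers at 13:30, against 8.16, 12.4 and 5.22 CPM at 10:30, and 7.89, 9.19 and 6.47 CPM in WT livers at 13:30, against 113, 8.25 and 6.69 CPM at 10:30. WT 10:30 replicate 1 was the high one. Without it the difference was 2.34 (adjusted p = 0.103, edgeR), and the call was also lost without any of 6 other libraries. Alas1, the first enzyme of haem synthesis, had 376, 433 and 236 CPM in α7HMZ livers at 13:30, against 406, 1449.9 and 559.8 CPM at 10:30, and 844, 667 and 889.7 CPM in WT livers at 13:30, against 52.9, 109 and 331 CPM at 10:30. Its groups overlapped in α7HMZ livers, and the call was lost without any of 4 libraries (adjusted p = 0.0504 to 0.0708, edgeR). The calls of Cd207, Dnajb1, Fermt2, Gm826, Got1, Hspa1a, Hspa1b, Kalrn, Klhdc7a and Mbd1 held under all 23 alternatives run, and the calls of the other 14 genes were lost without at least 1 library.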

How the results depend on the processing

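The counts of calls, from 3 mice a group, moved with the settings and with the libraries used. The part of depth in them was not tested. In α7HMZ livers 305 genes were higher and 319 lower as reported. The counts were 117 and 82 from the 6 α7HMZ libraries alone, 892 and 1035 against the fasted 10:30 libraries, 116 and 91 against a 1.2-fold change, 89 and 74 with a log2 fold change of 1 or more in size, and 448 and 515 with DESeq2. Leaving out 1 α7HMZ library gave 148 to 409 higher and 122 to 429 lower. In WT livers 1275 were higher and 1280 lower as reported. The 6 WT libraries alone gave 1825 and 1784, so fitting each genotype by itself moved the counts of the genotypes opposite ways. The WT counts were 577 and 547 against a 1.2-fold change and 207 and 240 with a log2 fold change of 1 or more in size. Without 1 WT library 718 to 988 were higher and 799 to 1102 lower. With upper quartile factors the WT higher share was 39.9% in place of 49.9%. The 304 differences became 56 against a 1.2-fold change, 167 with a log2 fold change of 1 or more in size, 677 with DESeq2, and 46 to 875 without 1 library.

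Replicate numbers were not used to pair the samples. Over genes, the deviations of same-numbered livers at the 2 times correlated at 0.046, 0.046 and 0.089 in α7HMZ and 0.008, 0.118 and −0.028 in WT livers. Those of differently numbered livers correlated at −0.085 to 0.036 in α7HMZ and −0.116 to 0.095 in WT livers. So few small values cannot decide whether the numbers mark pairs. A replicate block gave 248 higher and 245 lower in α7HMZ livers, 1197 and 1175 in WT livers, and 144 differences.

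Of the 72 named genes called in α7HMZ livers, 32 were called under every alternative, 39 under every one but the fasted libraries, and 32 were lost without at least 1 library. Against the fasted libraries the opposite change was called for Idi1 (2.49), Akr1d1 (1.03), Pmvk (0.92), Acss2 (0.74) and Mbd1 (0.64). The sign turned without a call for Cyp2b10 (0.95), Cyp2b13 (0.38), Abcb11 (0.31), Dnajb1 (0.23), Aass (0.11), Got1 (0.0302), Junb (−0.39) and Socs3 (−0.25) (adjusted p = 0.154 to 0.961, edgeR). Ghr (0.55), Cirbp (−1.06), Mmp14 (−0.58) and Ccnd3 (−0.35) were not called against fed morning livers but were called the other way against the fasted ones. Feeding differs there, and the cause was not tested. The rule of a log2 fold change of 1 or more was applied to counts only.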
